A study of Saccharomyces cerevisiae with 54 samples.

Results

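The 56 small ribosomal subunit protein genes described here were the cytoplasmic RPS genes of budding yeast, RPS0A to RPS31, taken by name from a count table of 6571 genes. They made up 24 pairs of paralogous genes, each with a copy A and a copy B, and 8 single-copy genes. RNA was sequenced from an MMTT and an SS diploid, both in the S288c laboratory background, during sporulation. MMTT was homozygous for MKT1(89G) and TAO3(4477C), alleles of the SK1 strain put in place of those of S288c, and came from mating haploid segregants with both. SS was the wildtype, with MKT1(89A) and with TAO3(4477G). Each genotype was 1 diploid strain, and strains with only 1 of the alleles were not analysed here. Both strains were pre-cultured in rich glucose medium and in an acetate medium, and the 0 h sample marks their shift to sporulation medium, a potassium acetate solution supplied with amino acids. Cells were taken at 9 times with 3 replicates each: first at 0 h, then after 30 min, next after 45 min, then after 1 h 10 min, next after 1 h 40 min, then after 2 h 30 min, next after 3 h 50 min, then after 5 h 40 min, and last after 8 h 30 min.

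The small subunit of the ribosome reads the messenger RNA, and its proteins are needed in about equal numbers, so their genes are transcribed in concert. In yeast, Rap1 binds most promoters of ribosomal protein genes, and Fhl1 with its co-activator Ifh1 joins it there. Nutrient signalling through TORC1 and protein kinase A, with Sfp1 and Sch9 downstream, raises their transcription in rich medium and lowers it in starvation, and sporulation in acetate is such a starvation. Most of these genes were kept in duplicate after the ancestral genome duplication, and many carry an intron, which is otherwise uncommon in yeast. Of the 56 genes, 36 had an intron and 20 did not.

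Of the 54 libraries, 49 entered the comparisons (24 MMTT and 25 SS). The other 5 were taken as the potential outliers that the study set aside. Its text does not name them, and they were read from the sample names in its figures, which is not certain. For that reason 5 of the 18 groups of strain and time held 2 libraries. The 49 libraries held 1455002 to 5793502 counts (median 3641591). The median count of an RPS gene was 265.5 to 1649 by library and the lowest single count was 37, and all 56 genes passed the filters on low counts. Levels are given as CPM, counts scaled to a common library size. Fold changes are on the log2 scale. A gene was called when its p, from edgeR's quasi-likelihood test adjusted by Benjamini and Hochberg over all genes tested, was under 0.05. Nothing in the labels says that replicates were separate cultures, so the p-values measure the spread between these samples, which may be technical. The libraries hold the RNA of whole cultures, in which fewer cells with a transcript and less of it per cell cannot be told apart.

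Stretches of 4 promoters are shown from 420 to 121 bases before the coding start (S288c reference, R64, RefSeq). RPS4A and RPS22A are among the 3 genes with the smallest p for a time course that differed between the strains, RPS20 fell in MMTT after the transfer, and RPS16A held the cores of both factors. Capitals mark the Rap1 core CACCCNNAC and the Fhl1 core GACGC on either strand, and the cores can share letters where they meet. The stretches are RPS4A at chrX:703189-703488 on the minus strand, RPS20 at chrVIII:74992-75291 on the plus strand, RPS22A at chrX:75423-75722 on the minus strand and RPS16A at chrXIII:551508-551807 on the plus strand.
RPS4A: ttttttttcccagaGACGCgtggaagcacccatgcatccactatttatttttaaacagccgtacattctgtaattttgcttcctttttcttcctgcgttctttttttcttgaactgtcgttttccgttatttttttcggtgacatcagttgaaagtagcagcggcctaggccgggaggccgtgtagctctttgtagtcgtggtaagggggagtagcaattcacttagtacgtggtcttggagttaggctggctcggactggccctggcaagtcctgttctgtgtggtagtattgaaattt
RPS20: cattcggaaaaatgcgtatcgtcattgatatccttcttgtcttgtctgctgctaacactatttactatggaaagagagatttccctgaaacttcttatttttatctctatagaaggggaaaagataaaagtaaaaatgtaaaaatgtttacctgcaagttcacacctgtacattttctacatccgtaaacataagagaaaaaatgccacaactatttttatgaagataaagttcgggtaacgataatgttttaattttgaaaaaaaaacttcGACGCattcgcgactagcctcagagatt
RPS22A: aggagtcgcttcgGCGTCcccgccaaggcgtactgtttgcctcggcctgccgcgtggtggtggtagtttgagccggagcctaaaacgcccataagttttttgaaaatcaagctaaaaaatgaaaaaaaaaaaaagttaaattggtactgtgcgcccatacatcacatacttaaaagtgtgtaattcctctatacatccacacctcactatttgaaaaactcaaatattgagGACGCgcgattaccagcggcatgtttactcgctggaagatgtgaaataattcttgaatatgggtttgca
RPS16A: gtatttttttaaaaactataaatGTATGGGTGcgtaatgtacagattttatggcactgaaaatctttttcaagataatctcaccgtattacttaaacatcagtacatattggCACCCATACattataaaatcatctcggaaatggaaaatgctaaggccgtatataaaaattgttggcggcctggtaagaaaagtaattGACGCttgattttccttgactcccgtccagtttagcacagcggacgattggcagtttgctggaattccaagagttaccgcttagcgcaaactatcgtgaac
The stretch of RPS16A held 2 Rap1 cores and 1 Fhl1 core, that of RPS22A held 2 Fhl1 cores, and those of RPS4A and RPS20 held 1 Fhl1 core each. In the 500 bases before the coding start, the Rap1 core stood in 13 of 56 RPS genes (23.2%) and in 4.22% of 6000 genes. The Fhl1 core stood in 27 RPS genes (48.2%) and in 30.4% of all genes. The RRPE element AAAATTTT stood in 4 RPS genes (7.14%, against 12.4% of all genes) and the PAC element GATGAG in 12 (21.4%, against 28.3%), both searched on either strand. These last elements are typical of genes for ribosome assembly. All 4 shares describe exact matches to these letters in that window, part of which lies within the transcript. Binding sites with other letters were not searched for, so a stretch without a marked core can still hold one.

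The 56 genes together took a smaller share of the counts in MMTT than in SS from 30 min until 1 h 10 min and again at 8 h 30 min, and the strains lay closer together in between. At 45 min the share was 1.26% and 0.822% in the MMTT libraries, against 1.69%, 2.20% and 2.27% in the SS libraries. The share at 8 h 30 min was 0.772%, 1.06% and 0.760% in MMTT, against 2.00%, 1.99% and 1.86% in SS. At neither time did the strains overlap. In MMTT the share was 0.692% ± 0.133 at 0 h, 1.03% ± 0.0818 at 30 min, then 0.907% ± 0.0611 at 1 h 10 min, and then 0.872% ± 0.218 at 1 h 40 min (SD, n = 3 each). It was 1.17% ± 0.279 at 2 h 30 min, and then 1.10% ± 0.0560 at 5 h 40 min (SD, n = 2 each), with 0.986% ± 0.0525 at 3 h 50 min (SD, n = 3). From 30 min on, the means of MMTT thus stayed between 0.863% and 1.17%. In SS it was 0.577% ± 0.0430 at 0 h and 1.61% ± 0.174 at 30 min (SD, n = 2 each). It was 1.77% ± 0.243 at 1 h 10 min, then 0.952% ± 0.0167 at 1 h 40 min, then 0.962% ± 0.0793 at 2 h 30 min, then 1.07% ± 0.236 at 3 h 50 min, and then 1.23% ± 0.237 at 5 h 40 min (SD, n = 3 each). SS had a high early share, a trough from 1 h 40 min and a high share at 8 h 30 min. The share ranged from 0.596% to 1.37% over the MMTT libraries and from 0.546% to 2.27% over the SS libraries. The 82 genes of the large subunit took 1.43% ± 0.423 in MMTT (SD, n = 2) and 2.72% ± 0.417 in SS (SD, n = 3) at 45 min.

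**Figure D1:**
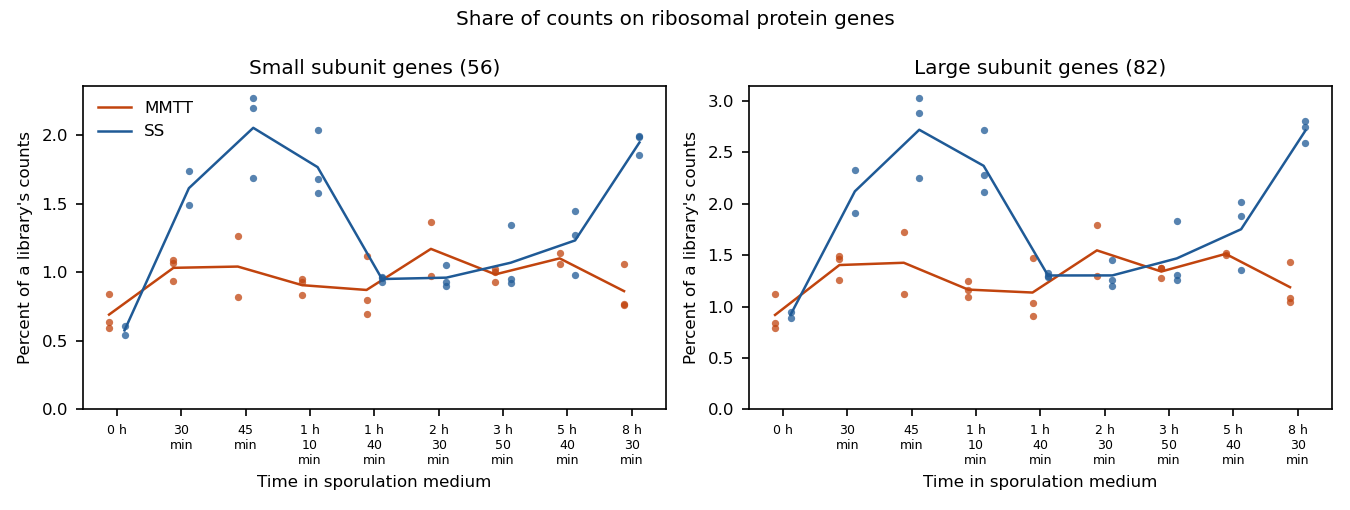
Share of each library's counts, in percent, on the 56 small subunit genes (left) and the 82 large subunit genes (right) against time in sporulation medium, with the 9 times evenly spaced. Points are libraries and lines join the means of MMTT and of SS; at 8 h 30 min the small subunit share was 0.760% to 1.06% in MMTT and 1.86% to 2.00% in SS.

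The comparison of MMTT with SS at each time asks what both alleles together change. At 0 h few RPS genes differed: the median log2 fold change was 0.26, 2 genes were higher in MMTT, RPS9A among them (1.03 ± 0.31 SE), and RPS25B (-0.71 ± 0.24 SE) was lower. Of all 6031 genes tested, 7.16% were called higher and 7.63% lower at 0 h. The 2 higher calls were lost without MMTT 0 h replicate 3 or SS 0 h replicate 3 (0 genes higher) and 1 of them without SS 0 h replicate 2, and the lower one was lost without MMTT 0 h replicate 1 or 2 or SS 0 h replicate 2. Without MMTT 0 h replicate 3 the median was 0.061, and without SS 0 h replicate 2 it was 0.15. At 30 min 36 of the 56 genes were lower in MMTT and none was higher (median -0.80), against 21.8% of all genes lower and 18.1% higher. At 45 min 49 were lower and none higher (median -1.13, 12.0% of all genes lower and 13.9% higher). At 1 h 10 min 44 were lower and none higher (median -0.97, 18% of all genes lower and 18.4% higher). Most RPS genes were thus lower in MMTT at these times. Without MMTT 45 min replicate 3, 32 genes were lower at 45 min.

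Few RPS genes differed between the strains from 1 h 40 min until 5 h 40 min. At 1 h 40 min 7 were lower in MMTT and 1 was higher, RPS23A (0.62 ± 0.22 SE), with a median of -0.14 (9.85% of all genes lower, 13.0% higher). No gene was called higher there without MMTT 1 h 40 min replicate 1 or 2 or SS 1 h 40 min replicate 1 or 3, and 2 were without MMTT replicate 3. The median there turned to 0.021 without MMTT replicate 3, and was -0.29 without MMTT replicate 1 and -0.088 without SS replicate 2. At 2 h 30 min none was lower and 3 were higher, RPS22A and RPS27B among them (median 0.065, 15.8% of all genes lower, 15.7% higher). Without MMTT 2 h 30 min replicate 1 the median was -0.23 with 0 genes higher and 5 lower. Without replicate 2 it was 0.35 with 1 higher, 1 was higher without SS replicate 1 or 2, and 5 were without SS replicate 3. The median was 0.021 without SS replicate 2 and 0.15 without SS replicate 3. At 3 h 50 min 4 were lower and RPS22A was higher (median -0.23, 10.7% of all genes lower, 9.27% higher). Without SS 3 h 50 min replicate 1 the median was 0.037 with 0 genes called, without MMTT replicate 1 or 3 there were 2 lower, and without SS replicate 3 there were 7. At 5 h 40 min 6 were lower and none higher (median -0.23, 11.9% of all genes lower, 11.6% higher). That count was 0 without MMTT replicate 2 or without SS replicate 3 of that time and 1 without MMTT replicate 1, and 1 gene was higher without SS replicate 1. The median was -0.040 without SS replicate 3 and -0.34 without SS replicate 2. The shares of called RPS genes at these times lay near or below those of all genes.

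At 8 h 30 min the difference was back: 50 of 56 genes were lower in MMTT and none was higher (median -1.13), against 21.9% of all genes lower and 20.3% higher. Leaving out 1 library at a time gave 45 to 51 genes lower. The large subunit genes had a median of -0.71 at 30 min, then -1.12 at 45 min, and then -1.19 at 8 h 30 min. Within the small subunit, the 22 genes for proteins of its head had a median of -1.17 at 8 h 30 min and the 34 for its body and platform one of -1.09. In all, 36 genes were lower in MMTT at 30 min and 45 min, at 1 h 10 min and likewise at 8 h 30 min, as were 5.14% of all genes tested. At none of these times were 4 (RPS25A, RPS28A, RPS30A and RPS30B) lower, nor were 61% of all genes.

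**Figure D2:**
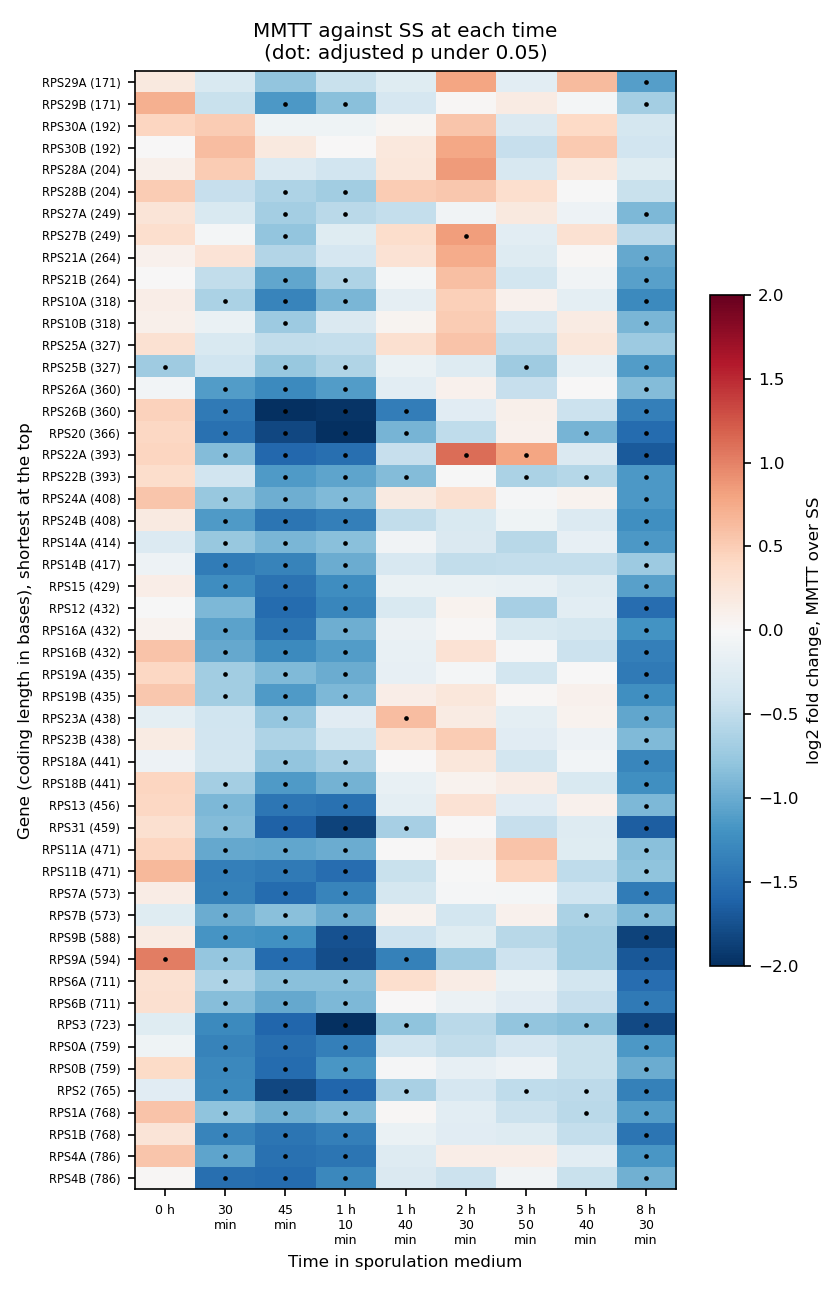
Log2 fold change of MMTT over SS for 51 of the 56 genes (rows, ordered by coding length) at the 9 times (columns), with a dot for an adjusted p under 0.05. Lower values in MMTT with dots fill most of the columns from 30 min to 1 h 10 min and at 8 h 30 min, when 36, 49, 44 and 50 of all 56 were called lower.

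RPS20 (YHL015W), a protein of the head, showed the early difference plainly. At 45 min it had 79.3 and 158 CPM in MMTT, against 402, 463 and 418 CPM in SS. Every SS library lay above both MMTT libraries. Its log2 fold change was -1.49 ± 0.27 SE at 30 min (adjusted p = 5.07e-05) and -1.82 ± 0.29 SE at 45 min. RPS4B (YHR203C), 1 of 2 genes for an identical protein of the body, had 134, 95.3 and 171 CPM in MMTT, against 425 and 341 CPM in SS at 30 min. It had the most negative fold change of the RPS genes at that time, -1.52 ± 0.20 SE, and the groups did not overlap. RPS2 (YGL123W), next to the mRNA channel, had 212 and 202 CPM in MMTT, against 587, 812 and 787 CPM in SS at 45 min (-1.82 ± 0.20 SE), again with no overlap.

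The lowest fold changes at 8 h 30 min were those of RPS9B and RPS3. RPS9B (YBR189W), for a protein that bears on decoding accuracy, had 96.3, 108 and 99.1 CPM in MMTT, against 405, 360 and 329 CPM in SS (log2 fold change -1.85 ± 0.24 SE). RPS3 (YNL178W), at the mRNA entry channel, had 198, 283 and 194 CPM in MMTT, against 930, 787 and 653 CPM in SS (-1.81 ± 0.24 SE). In both genes every SS library was higher than every MMTT library. RPS31 (YLR167W), made as a fusion with ubiquitin, had 244, 330 and 252 CPM in MMTT, against 943, 891 and 746 CPM in SS (-1.64 ± 0.25 SE). RPS22A (YJL190C) had 30.8, 47.8 and 29.1 CPM in MMTT, against 105, 125 and 114 CPM in SS (-1.68 ± 0.27 SE). The groups did not overlap in either.

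RPS22A also went the other way in the middle of the time course. At 2 h 30 min it had 61.5 and 40.8 CPM in MMTT, against 20.1, 24.3 and 25.7 CPM in SS, a log2 fold change of 1.12 ± 0.31 SE (adjusted p = 0.00608). At 3 h 50 min it had 53.6, 48.2 and 53.1 CPM in MMTT, against 33.4, 25.5 and 31.1 CPM in SS (0.78 ± 0.27 SE). The groups overlapped at neither time, but the call at 3 h 50 min was lost without any 1 of its 6 libraries and that at 2 h 30 min without MMTT 2 h 30 min replicate 1 (0.83). RPS27B (YHR021C), for a zinc finger protein, had 160 and 142 CPM in MMTT, against 72.5, 76.6 and 106 CPM in SS at 2 h 30 min (0.83 ± 0.26 SE). Its call was lost when either MMTT library or SS 2 h 30 min replicate 1 or 2 was left out, with values of 0.72 to 0.96.

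The 4 genes never called lower at those times were short ones, of 192 to 327 coding bases. RPS30A (YLR287C-A) had 457, 477 and 420 CPM in MMTT, against 300 and 334 CPM in SS at 30 min, with a log2 fold change of 0.51 ± 0.23 SE (adjusted p = 0.0766). RPS28A (YOR167C) had 280, 305 and 236 CPM in MMTT, against 214 and 172 CPM in SS at 30 min (0.50 ± 0.37 SE, adjusted p = 0.28). Neither passed the test. At 30 min the 14 RPS genes under 350 coding bases had a median of -0.30 and the 42 longer ones one of -1.002. The same order held among other genes, where 326 short ones had a median of 0.80 and 5240 longer ones -0.077. Across the 56 genes the log2 fold change and the coding length had a Spearman correlation of -0.62 at 30 min, then -0.47 at 45 min, and then -0.42 at 8 h 30 min. Across 5566 genes outside the cytoplasmic ribosome it was -0.51, -0.37 and -0.10 at these times. These correlations describe genes that share the same libraries.

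A fit corrected in each library for the trend on coding length among those other genes, added after these values were seen, gave a larger early deficit of MMTT. The median was -1.27 at 30 min with 52 genes lower (15.8% of all genes lower in the same fit), -1.45 at 45 min with 55 lower (11.2%) and -1.32 at 1 h 10 min with 56 lower (16.3%). At 8 h 30 min it was -1.21 with 54 lower (23.4%). At 2 h 30 min the median turned to -0.27 with 10 genes lower (10.2%) and 0 higher, and RPS22A (0.66 ± 0.32 SE) and RPS27B (0.12 ± 0.21 SE) were no longer called. At 1 h 40 min 15 genes were then lower (11%), and at 5 h 40 min 20 were (9.67%). RPS30A was lower at 45 min (-0.60 ± 0.15 SE, adjusted p = 0.00318) and at 8 h 30 min (-0.56 ± 0.13 SE) in this fit, and RPS28A at 30 min was at -0.32 ± 0.24 SE (adjusted p = 0.333). What gives the trend on length was not tested.

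**Figure D3:**
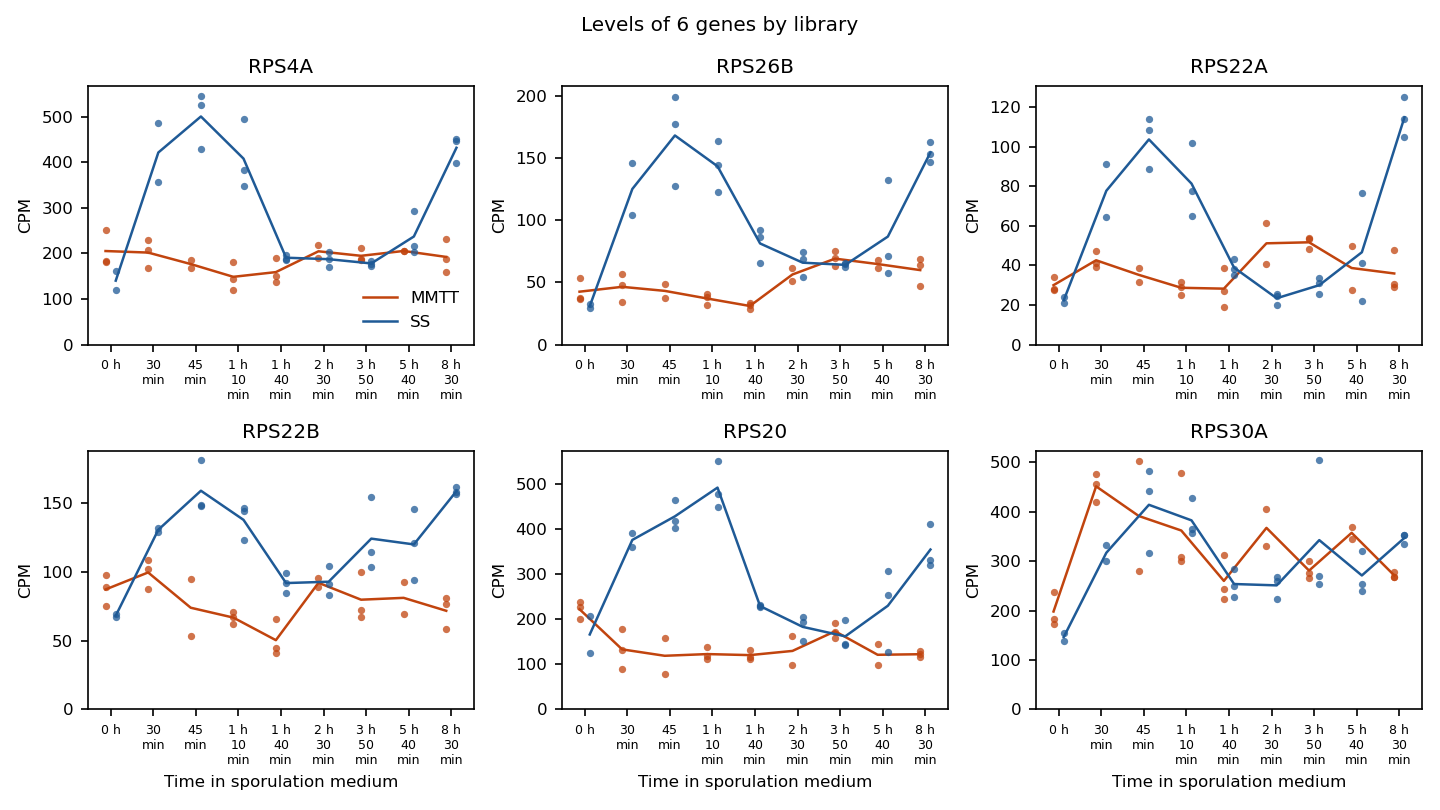
CPM of 6 genes in every library (points) against time in sporulation medium, evenly spaced, with lines through the means of MMTT and of SS. At 45 min RPS4A had 168 and 185 CPM in MMTT, against 429, 526 and 546 CPM in SS, whereas RPS30A at 30 min had 457, 477 and 420 CPM in MMTT, against 300 and 334 CPM in SS.

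Within SS, the RPS genes rose after the transfer to sporulation medium. At 30 min 52 of 56 were higher than at 0 h (median 1.61), against 12.3% of 6350 genes tested. At 45 min all 56 were higher (median 1.92, 16.8% of all genes), and likewise at 1 h 10 min (median 1.65, 18%). The count was 39 at 1 h 40 min (median 0.80, 15.2%), then 41 at 2 h 30 min (median 0.80, 17.9%), then 46 at 3 h 50 min (median 0.99, 20.3%), and then 52 at 5 h 40 min (median 1.08, 20.6%). At 8 h 30 min all 56 were higher than at 0 h (median 1.73, 22.2%) and none was lower, where 20.1% of all genes were. Without SS 0 h replicate 2, 19 genes were higher at 1 h 40 min, and without SS 0 h replicate 3, 24. RPS19A (YOL121C), a head protein needed for maturation of the small subunit's RNA, rose most: it had 298, 257 and 301 CPM at 8 h 30 min, against 42.7 and 36.3 CPM at 0 h (log2 fold change 2.86 ± 0.30 SE). RPS14B (YJL191W), a platform protein, had 125, 111 and 122 CPM at 8 h 30 min, against 18.9 and 21.6 CPM at 0 h (2.56 ± 0.26 SE).

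The course in SS was not a steady rise. Comparisons between later times, chosen after these values were seen, put 51 of 56 genes lower at 1 h 40 min than at 45 min (median -1.12), against 5.64% of all genes, and 51 higher at 8 h 30 min than at 1 h 40 min (median 0.95), against 13.6%. In MMTT the same steps were small. At 1 h 40 min against 45 min 0 genes were lower (median -0.12, 0.389% of all genes), with 5 lower without MMTT 45 min replicate 3. That median went up to 0.13 without MMTT 45 min replicate 1, and down to -0.44 without MMTT 45 min replicate 3. At 8 h 30 min against 1 h 40 min RPS26B (0.98 ± 0.20 SE) was higher and RPS6A (-0.64 ± 0.22 SE) lower (median 0.051, 17.5% of all genes higher). That step gave 5 higher and 0 lower without MMTT 1 h 40 min replicate 1, and 2 higher and 4 lower without replicate 3. It gave 0 lower without MMTT 8 h 30 min replicate 1 or 3, and 3 without replicate 2. Its median ranged between -0.14 and 0.27 with 1 library left out, and was below 0 without MMTT 1 h 40 min replicate 2 or 3 or MMTT 8 h 30 min replicate 2.

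Within MMTT fewer RPS genes rose against 0 h. At 30 min 27 were higher (median 0.52, 18.6% of 6419 genes tested), 20 at 45 min (0.54, 16.2%), then 23 at 1 h 10 min (0.44, 16%), and then 20 at 1 h 40 min (0.40, 15.4%). The count was 30 at 2 h 30 min (0.71, 19.5%), then 27 at 3 h 50 min (0.66, 18.1%), then 28 at 5 h 40 min (0.63, 17.1%), and then 21 at 8 h 30 min (0.47, 23.5%). At 1 h 10 min 4 were lower (RPS3, RPS4A, RPS9A and RPS20, 16.8% of all genes), at 1 h 40 min 4 were (RPS3, RPS9A, RPS20 and RPS22B, 16%) and at 8 h 30 min 3 were (RPS6A, RPS20 and RPS31, 21.9%). RPS20 alone was lower at 30 min (18.9% of all genes) and at 45 min (13.8%). It was again the only one lower at 2 h 30 min (17.6%) and likewise for 5 h 40 min (17%), and no RPS gene was lower at 3 h 50 min. In SS none was called lower than at 0 h at any time.

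These counts in MMTT depended on single libraries. Without MMTT 0 h replicate 2 they were 14 higher at 1 h 10 min, then 12 at 1 h 40 min, then 17 at 3 h 50 min, then 18 at 5 h 40 min, and then 11 at 8 h 30 min. Without MMTT 0 h replicate 1 they were 13 at 1 h 40 min and likewise at 8 h 30 min. Leaving out replicate 1 of the later time gave 7 at 45 min, then 8 at 1 h 40 min, then 16 at 2 h 30 min, and then 16 at 5 h 40 min. Leaving out replicate 2 of it gave 17 at 5 h 40 min, and then 12 at 8 h 30 min. The 4 genes lower at 1 h 10 min became 2 without MMTT 0 h replicate 3 or MMTT 1 h 10 min replicate 1 or 2, and the 4 at 1 h 40 min became 2 without MMTT 0 h replicate 3 and 1 without MMTT 1 h 40 min replicate 2. The 1 gene lower at 30 min became 0 without MMTT 0 h replicate 3 or MMTT 30 min replicate 1 or 2, and that at 5 h 40 min without replicate 2 of that time. For 2 h 30 min the count became 0 without MMTT 0 h replicate 1 or 3 or MMTT 2 h 30 min replicate 2, and 2 without MMTT 2 h 30 min replicate 1. The median was 0.27 at 45 min without MMTT replicate 1 of that time, and likewise 0.22 at 1 h 40 min, and then 0.47 at 2 h 30 min. The median for 8 h 30 min was 0.30 without MMTT replicate 2. At 30 min against 0 h the RPS genes under 350 coding bases had a median of 1.21 and the longer ones 0.34. In the fit corrected for coding length, the median over the RPS genes against 0 h was 0.24 at 30 min and 0.24 at 1 h 10 min.

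RPS14B and RPS28B rose most in MMTT at 8 h 30 min. RPS14B had 61.8, 85.9 and 67.2 CPM at 8 h 30 min, against 20.5, 14.7 and 21.4 CPM at 0 h (log2 fold change 1.92 ± 0.20 SE). RPS28B (YLR264W), whose protein lowers its own mRNA in yeast, had 64.8, 75.1 and 67.8 CPM at 8 h 30 min, against 27.1, 25.6 and 28.7 CPM at 0 h (1.36 ± 0.19 SE). In both genes the times did not overlap. RPS20 fell in MMTT: it had 123, 116 and 128 CPM at 8 h 30 min, against 228, 200 and 238 CPM at 0 h (-0.86 ± 0.23 SE). It was called lower than at 0 h at every later time except 3 h 50 min, though at 30 min the call was lost without MMTT 0 h replicate 3 or MMTT 30 min replicate 1 or 2, at 2 h 30 min without MMTT 0 h replicate 1 or 3 or replicate 2 of that time, and at 5 h 40 min without replicate 2 of that time. In SS, RPS20 had 330, 412 and 320 CPM at 8 h 30 min, against 125 and 207 CPM at 0 h (1.10 ± 0.26 SE). RPS6A (YPL090C), 1 of 2 genes for a protein phosphorylated under TORC1, had 136, 178 and 141 CPM at 8 h 30 min, against 225, 242 and 327 CPM at 0 h in MMTT (-0.80 ± 0.22 SE), also without overlap.

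The difference in time course itself was tested as the interaction of strain and time. At an adjusted p under 0.001 it was called for 35 of 56 RPS genes, against 14.8% of 6031 genes, and for 43 of the 82 large subunit genes. RPS4A (YJR145C) had the smallest p (F = 17.0, adjusted p = 2.9e-08). At 45 min it had 168 and 185 CPM in MMTT, against 429, 526 and 546 CPM in SS, and at 0 h 182, 182 and 251 CPM in MMTT, against 119 and 161 CPM in SS. RPS26B (YER131W), for a protein at the mRNA exit channel, came next (F = 14.1, adjusted p = 2.19e-07). It had 48.9 and 37.5 CPM in MMTT, against 128, 177 and 200 CPM in SS at 45 min and 33.2, 31.7 and 28.2 CPM in MMTT, against 65.7, 92.1 and 86.2 CPM in SS at 1 h 40 min. At both times every SS library lay above every MMTT library. RPS22A was the third (F = 13.1, adjusted p = 4.39e-07). Leaving out any 1 library left 30 to 41 genes called, and in the fit corrected for coding length 42 were called, against 17.3% of all genes.

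Levels between genes were compared as CPM per kilobase of coding length. The highest level in either strain was that of RPS30A, with 1672 ± 485 in MMTT and 1607 ± 474 in SS (SD over libraries of all times), followed over all libraries by RPS25A with 1213 ± 408 in MMTT and 1446 ± 574 in SS. RPS31 had 837 ± 216 in MMTT and 1557 ± 662 in SS, where it stood above RPS25A. Within SS these 3 lay within their spread. The lowest was RPS9A, with 62.1 ± 18.2 in MMTT and 127 ± 47.3 in SS, then RPS22A with 95.5 ± 27.7 in MMTT and 154 ± 92.0 in SS.

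The A and B copies make proteins of at least 87.9% identity (RPS7). In 9 of 24 pairs the proteins are the same and in 7 they differ by 1 residue. The coding sequences of a pair are 84.3% to 99.2% identical, and in 20 pairs every stretch of 100 coding bases is found in 1 copy only. In RPS4, RPS6 and RPS24 this held for 86.8%, 46.6% and 82.8% of the stretches, so the split of reads between the copies is less certain there. The shares that follow are of the pair's counts per coding kilobase.

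Copy A gave more than 50% in all 49 libraries in 10 pairs and less in all 49 in 2 pairs, RPS22 and RPS9, and 12 pairs had libraries on both sides. Over all libraries the highest mean share of copy A was that of RPS28, whose protein sits in the head, with 79.2% ± 2.97 in MMTT and 77.5% ± 5.36 in SS (SD over 24 and 25 libraries). The lowest was that of RPS9, with 23.3% ± 4.81 in MMTT and 23.7% ± 4.61 in SS. RPS22 was next with 32.6% ± 5.20 in MMTT and 30.6% ± 8.83 in SS. RPS25 (79.5% ± 4.12 in MMTT and 74.9% ± 2.87 in SS) was above RPS28 in MMTT and below RPS28 in SS, both by less than the spread.

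**Figure D4:**
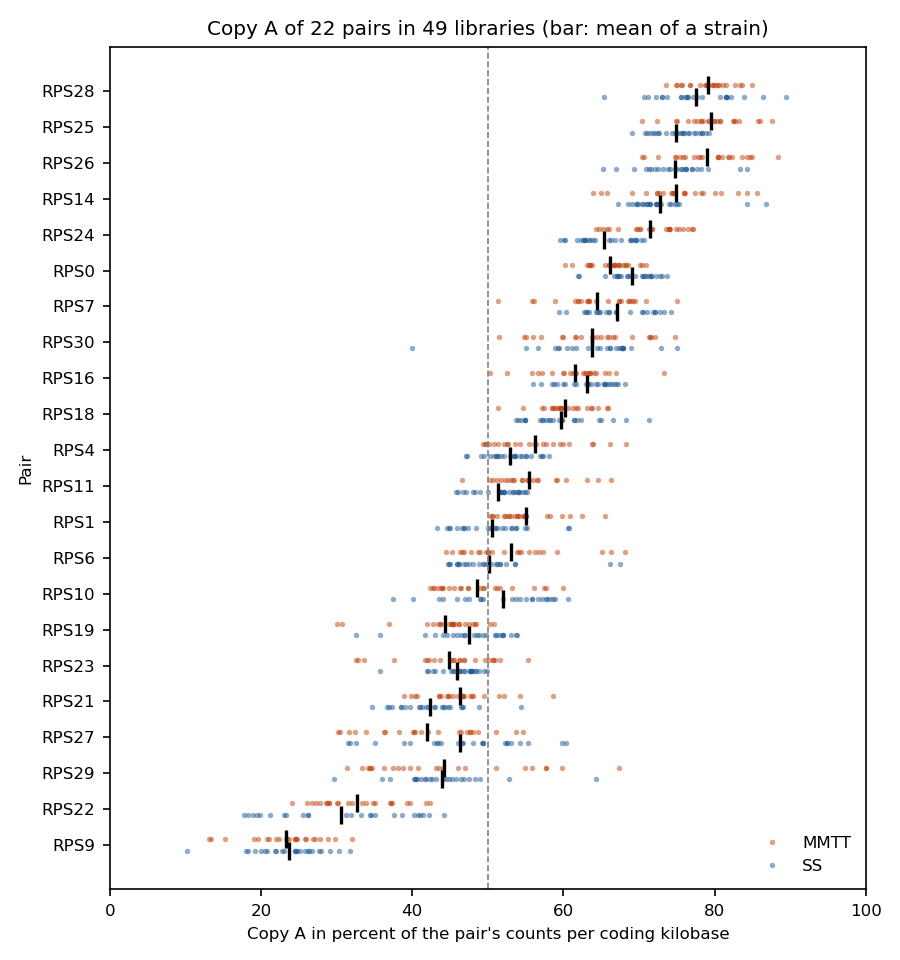
Share of copy A in the pair's counts per coding kilobase, in percent, for 22 of the 24 pairs (rows), with a point per library, a bar at the mean of MMTT (upper) and of SS (lower) and a dashed line at 50. RPS28 has a mean of 79.2% in MMTT and 77.5% in SS and RPS9 one of 23.3% in MMTT and 23.7% in SS, and the libraries of the strains overlap in every pair.

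Both copies were called lower in MMTT than in SS in 13 of 24 pairs at 30 min (14% of all 465 paralogous pairs tested), then 18 at 45 min (11.8%), then 15 at 1 h 10 min (13.8%), and then 20 at 8 h 30 min (17.4%). In SS both were higher than at 0 h in all 24 pairs at 45 min (17.8% of all 471 pairs tested) and at 8 h 30 min (19.5%). The copies were called in opposite directions in 1 pair, RPS22 at 3 h 50 min, where RPS22A was higher and RPS22B lower in MMTT (-0.63 ± 0.19 SE), a call of RPS22A that was lost without any 1 of its 6 libraries.

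The log2 ratio of copy A to copy B was tested with limma over 465 pairs of paralogs of the genome. It differed between MMTT and SS over the 9 times in 16 of 24 RPS pairs, where 69.2% of all pairs were called. It changed with time in MMTT in 18 pairs (76.8% of all pairs), in SS in 16 pairs (69.7%), and its time course differed between the strains in 11 (59.1%). These shares are near or below those of all paralogs. With all 54 libraries, 10 pairs were called over time in MMTT. Among the pairs with the smallest p between the strains were RPS24, RPS25 and RPS1, each with relatively more copy A in MMTT, and a log2 ratio higher by 0.40 ± 0.0465, 0.41 ± 0.0775 and 0.24 ± 0.0450 (SE, adjusted p from 2.199e-09 to 1.791e-05). For RPS24, a body protein identical between the copies, copy A gave 71.4% ± 4.10 of the pair in MMTT, against 65.3% ± 3.52 in SS.

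RPS22 had the ratio with the smallest p for a time course that differed between the strains (adjusted p = 4.156e-06). Its proteins differ by 1 residue. RPS22B (YLR367W) overlaps the snoRNA gene SNR44, and RPS22A lies 298 bases from RPS14B, tail to tail, on chromosome X. In MMTT the share of copy A was 25.6% ± 1.36 at 0 h, 33.2% ± 5.90 at 45 min, then 39.7% ± 4.08 at 3 h 50 min, and then 33.1% ± 4.25 at 8 h 30 min (SD over 2 or 3 libraries). In SS it was 24.7% ± 2.05 at 0 h, 39.5% ± 2.41 at 45 min, then 19.7% ± 2.90 at 3 h 50 min, and then 41.9% ± 2.04 at 8 h 30 min (SD). The libraries of MMTT lay below those of SS at 45 min, where the nearest ones had 37.4% in MMTT and 37.6% in SS, above them at 3 h 50 min and below them at 8 h 30 min. The ratio was not tested at single times. At 45 min RPS22A had 38.7 and 31.7 CPM in MMTT, against 88.8, 114 and 108 CPM in SS, and RPS22B had 94.6 and 53.1 CPM in MMTT, against 147, 181 and 148 CPM in SS. RPS26 was the next pair (adjusted p = 2.799e-05), with copy A at 85.5% ± 2.52 in MMTT and 73.1% ± 3.4 in SS at 1 h 40 min.

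Over time RPS6, RPS14 and RPS19 were among the 4 pairs with the smallest p in both strains. For RPS6, copy A gave 45.4% ± 0.925 at 8 h 30 min, against 66.5% ± 1.49 at 0 h in MMTT, and 47.3% ± 2.26, against 66.8% ± 0.956 in SS (SD over 2 or 3 libraries). For RPS14, whose protein represses splicing of RPS14B transcripts in yeast, copy A gave 66.0% ± 2.68 at 8 h 30 min, against 84.3% ± 1.25 at 0 h in MMTT, and 72.0% ± 2.51, against 85.6% ± 1.76 in SS. For RPS19 copy A gave more later on, with 48.1% ± 2.46 at 8 h 30 min, against 32.6% ± 3.75 at 0 h in MMTT, and 51.6% ± 2.57, against 34.1% ± 2.24 in SS. RPS23, for a protein of the decoding centre, joined them in MMTT, with copy A at 51.9% ± 2.95 at 1 h 40 min, against 33.0% ± 0.575 at 0 h. RPS22 joined them in SS.

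**Figure D5:**
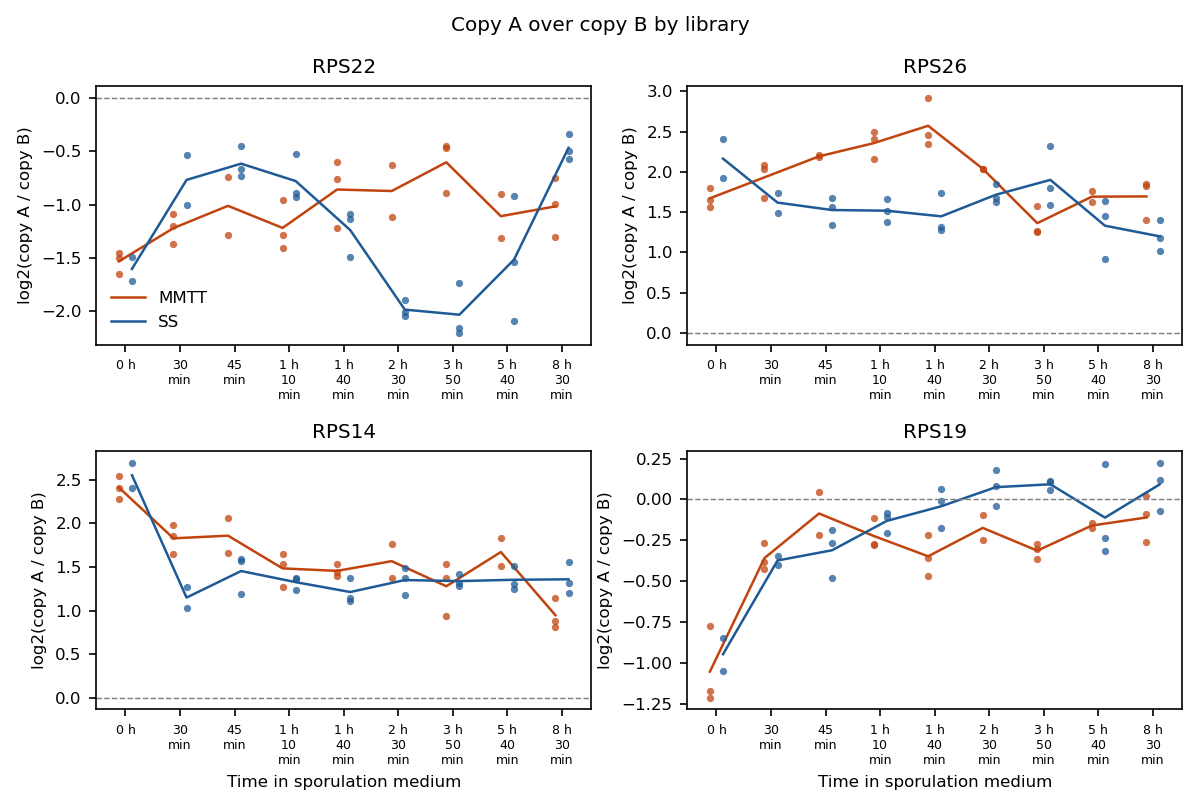
Log2 ratio of the counts of copy A to copy B for 4 pairs in every library (points) against time in sporulation medium, evenly spaced, with lines through the means of MMTT and of SS. Copy A of RPS22 in SS gave, of the pair's counts per coding kilobase, 39.5% at 45 min, then 19.7% at 3 h 50 min, and then 41.9% at 8 h 30 min.

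Genes that act on RPS transcription or on the subunit were described from 2 lists of 16 genes each. The second list, of partners of the small subunit, also held SYO1, whose protein serves the large subunit. The fold changes of the listed genes were not corrected for coding length. At 30 min coding length had a Spearman correlation of -0.51 with the fold changes of genes outside the cytoplasmic ribosome. At 8 h 30 min that correlation was -0.10. Of the regulators, 12 were lower in MMTT than in SS at 30 min and none higher (median -0.85), against 21.8% of all genes lower and 18.1% higher. These included FHL1 (-0.90 ± 0.22 SE), IFH1 (-0.81 ± 0.25 SE), SFP1 (-0.94 ± 0.21 SE), the kinase gene SCH9 (-1.12 ± 0.29 SE) and the repressor gene DOT6 (-1.56 ± 0.34 SE). The others were STB3, UTP22, CRF1, YAK1, TOR2, TOR1 and RAP1, at -1.44 to -0.50. At 8 h 30 min 7 regulators were lower and none higher (median -0.25), against 21.9% of all genes lower and 20.3% higher. They included IFH1 (-1.63 ± 0.23 SE), the co-activator, and CRF1 (-1.21 ± 0.20 SE), which in yeast competes with it for Fhl1, with FHL1 itself at -0.12 ± 0.20 SE (adjusted p = 0.659). The others were UTP22, RRP7, MRS6, HMO1 and SFP1, at -1.06 to -0.53. No regulator was higher at any time. Already at 0 h 4 were lower (median -0.45, 7.63% of all genes), when the RPS median was 0.26. The count was 5 for 45 min (-0.45), with 7 for 1 h 10 min (-0.40) but 4 for 1 h 40 min (-0.41). By 2 h 30 min it was 8 (-0.60, 15.8%), while 0 RPS genes were lower. It fell to 3 for 3 h 50 min (-0.11), then rose to 8 for 5 h 40 min (-0.59, 11.9%), while 6 RPS genes were lower. The regulator counts thus did not follow those of the RPS genes.

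Of the genes listed as partners of the small subunit, 7 were lower in MMTT at 30 min (21.8% of all genes) and 1 was higher (18.1%). The higher one was FAP7 (0.59 ± 0.24 SE), and the lower ones were TSR1, STM1, SYO1, ASC1, RIO1, ENP1 and YAR1, at -1.24 to -0.70. At 8 h 30 min 11 were lower and 1 higher, the kinase gene HRR25 (1.45 ± 0.36 SE), with a median of -0.74. Of all genes 21.9% were lower and 20.3% higher at that time. ASC1 (YMR116C), a protein of the head counted apart from the RPS genes, had 168, 215 and 149 CPM in MMTT, against 559, 525 and 459 CPM in SS at 8 h 30 min (-1.54 ± 0.22 SE). Every SS library was above every MMTT library. The ribosome-bound STM1 (-1.26 ± 0.16 SE) and the assembly factor LTV1 (-1.25 ± 0.17 SE) were lower too, and the others were LSO2, YAR1, ENP1, RIO1, NOB1, DIM1, PNO1 and RIO2, at -1.18 to -0.51. Of the partners, 10 were lower at 45 min (median -0.54), then 10 at 1 h 10 min (-0.73) and 5 at 1 h 40 min (-0.37). The count was 6 at 2 h 30 min (-0.34), then 6 at 3 h 50 min (-0.39) and 9 at 5 h 40 min (-0.60).

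Genes that mark entry into and progress through sporulation differed beside the RPS genes at 8 h 30 min. IME1 (1.28 ± 0.50 SE), IME2 (3.41 ± 0.37 SE), SPO11 (2.49 ± 0.27 SE), NDT80 (4.001 ± 0.31 SE) and SPS4 (10.14 ± 0.82 SE) were all higher in MMTT than in SS, 5 of 5. Of all genes 20.3% were higher at that time. Before, at 0 h, all 5 markers lay above 0 (median 0.47) and 0 were called. At 30 min, when 36 RPS genes were lower in MMTT, 1 of the 5 (SPS4, 3.76 ± 1.03 SE) was called higher (18.1% of all genes). IME1 was at -0.44 ± 0.55 SE (adjusted p = 0.54). At 45 min and at 1 h 10 min 2 of the 5 were called higher (13.9% and 18.4% of all genes), and 3 at 1 h 40 min (13.0%). The count was 4 at 2 h 30 min (median 2.32), 5 at 3 h 50 min (1.78) and 4 at 5 h 40 min (1.18). Of all genes 15.7%, 9.27% and 11.6% were higher at the last 3 of these times, when 0, 4 and 6 RPS genes were lower. The part of these marker genes in the RPS differences was not tested.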

How the data were processed

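Total RNA of 54 samples was made into strand-marking libraries and sequenced in pairs. Per the labels and the study's methods, the authors removed ribosomal RNA reads, aligned with STAR and deposited raw counts per gene without normalization. Tool versions, genome build, annotation and strand setting are not given in the sources used here.

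The 49 libraries taken as kept in the study (1455002 to 5793502 counts) were fitted with edgeR 4.0.16 (robust quasi-likelihood, trimmed mean of M values, R 4.3.3). All 18 groups were fitted together for MMTT against SS, on genes that reached 3 CPM in 3 libraries or more. Each strain was fitted alone against 0 h, on genes that reached 0.5 CPM in 3 libraries or more. Standard errors are the log2 fold change over the square root of F, and so approximate. Log2 ratios of copies, with 0.5 added to each count, were fitted with limma 3.58.1 over 465 paralogous pairs (blastp 2.17.0, reciprocal best hits, at least 40% identity over 70% of the longer protein). Alternatives were DESeq2 1.42.0, other scaling factors, all 54 libraries, no filter, each library left out, the replicate number as a block and a correction for coding length. The fits were tested on simulated data. Sequences are of R64, in which 5906 of the 6571 genes had an entry.

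Named were the 3 RPS genes with the smallest interaction p, the most raised and most lowered 2 of those called between strains at 30 min, 2 h 30 min or 8 h 30 min and in each strain at the last time against 0 h, the 4 pairs with the smallest p in each test of the ratio, those with the highest and lowest share of copy A, and called genes of the lists. Others were picked after their values were seen. A few RPS genes entered every fit and count but are not reported here by name or drawn in the plots of all genes and pairs. The RPS genes and lists were chosen with earlier results of these data known.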

Additional observations from a re-analysis of the deposited data

Results flagged for a closer look

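The time courses of 35 RPS genes differed between MMTT and SS by the test of strain by time, and the adjusted p was 2.9e-08 for RPS4A, 2.19e-07 for RPS26B and 4.39e-07 for RPS22A. The log2 ratio of copy A to copy B had a time course that differed between the strains in 11 pairs, led by RPS22 (adjusted p = 4.156e-06) and RPS26 (adjusted p = 2.799e-05), in a test in which 59.1% of all paralogous pairs were called.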

How the results depend on the processing

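Values here are medians of the log2 fold change over the 56 RPS genes unless said otherwise. With 1 library left out in turn, MMTT against SS gave 0.061 to 0.35 at 0 h, -0.96 to -0.64 at 30 min, -0.29 to 0.021 at 1 h 40 min, with the sign turned without MMTT 1 h 40 min replicate 3, -0.23 to 0.35 at 2 h 30 min, with the sign turned without MMTT 2 h 30 min replicate 1, and -0.35 to 0.037 at 3 h 50 min, with the sign turned without SS 3 h 50 min replicate 1. The comparison with 0 h gave 0.55 to 0.80 for MMTT at 5 h 40 min, and for SS 1.47 to 1.75 at 30 min, 0.68 to 0.84 at 1 h 40 min and 1.71 to 1.87 at 8 h 30 min. The correction for coding length, chosen after seeing the data, gave 0.086 for MMTT against SS at 0 h, -1.27 at 30 min, then -1.45 at 45 min, then -1.32 at 1 h 10 min, then -0.27 at 2 h 30 min, where the sign turned, and -0.56 at 5 h 40 min. Against 0 h it gave 0.24 for MMTT at 30 min, then 0.24 at 1 h 10 min, then 0.43 at 2 h 30 min, and then 0.43 at 5 h 40 min, and 1.64 for SS at 8 h 30 min. Upper-quartile scaling gave 1.86 for SS at 8 h 30 min, and with all 54 libraries 10 pairs had a ratio that changed over time in MMTT, against 18. The cause of these shifts was not tested. The 30 main values run with DESeq2's size factors stayed near their size. So did the 29 each with its Wald test, with no filter and with scaling that left out the ribosomal protein genes. A median was taken as near when it moved by less than its spread between replicates, so a small median need not have kept its sign. A count was taken as near when it changed by no more than a set factor. Counts of called RPS genes at single times were not among the main values, and some moved. At 5 h 40 min 3 were lower in MMTT than in SS with DESeq2's size factors, against 6. At 2 h 30 min 5 were higher with those factors and 7 with the Wald test, against 3. The Wald test called 1 RPS gene higher at 30 min, against 0. DESeq2 called 1593 genes with a time course that differed between the strains, against 895 in edgeR, and 41 RPS genes, against 35.

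The mean correlation of deviations between samples of the same replicate number was 0.04 within MMTT, against -0.02 between different numbers. Within SS it was -0.02, against 0.01 between different numbers. With so few libraries in a group, these small values do not settle whether the numbers pair the samples. With the replicate number as a block, the median of MMTT against SS was -0.84 at 30 min, and then -1.13 at 8 h 30 min. The 34 main values stayed near their size by the same rule. No group held more than 3 libraries, which limits how far a single library can be judged.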
